A study of Mus musculus with 24 samples.

Results

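Solute carriers, the membrane proteins that carry nutrients, ions, metals and metabolites across the plasma membrane and the membranes of organelles, were followed in SIM-A9 mouse microglia 2 h after exposure to neuro-probes. The genes were all protein-coding genes of GENCODE M21 (mouse) whose symbol starts with Slc, without Slc7a11, Slc2a1, Slc2a3, Slc16a1 and Slc16a3, that passed a filter on low counts (at least 10 counts at the median library size in 3 or more libraries, and 15 in all). Of 385 such genes in the annotation, 380 remained without the 5 left out, and 189 of these passed, among 13116 genes tested in all. The 189 genes belong to 46 families, counting Slco as 1. Of the 191 genes that did not pass, 71 had 0 counts in every library and 37 had more than 3 counts in some library, with 13 the highest single count. At or above its level (0.416 CPM, counts scaled to a common library size) were 179 of the 189 genes in all 24 libraries and none in the libraries of 1 group only, while Slc1a1 reached that level in the 6 nanotube libraries alone. A symbol is not a function, and the rule also took in Slc9a3r1, a scaffold protein, and Slc4a1ap and Slc7a6os, which are named for a neighbouring gene or a binding partner and are not transporters.

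Most solute carriers are driven by the gradient of their substrate or of a coupled ion, not by ATP. The family number gives the usual kind of cargo, from which single members can depart: Slc11, Slc30, Slc31, Slc39 and Slc40 move metals, Slc7 moves amino acids, Slc25 serves the inner mitochondrial membrane and Slc35 loads nucleotide sugars into the Golgi. In microglia and macrophages they are known for withholding iron and zinc from microbes, for passing peptides and nucleosides out of lysosomes, and for supplying glucose, phosphate and amino acids to activated cells.

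SIM-A9 is an established line of mouse microglia. Cells in wells had stood in serum-free medium for 2 h, a concentrated sample was then added, and poly-A RNA was taken 2 h later. The 8 groups of 3 libraries were untreated control cells, LPS (bacterial lipopolysaccharide, the positive control for inflammation), (GT)6 SWCNT (single-walled carbon nanotubes labelled with a short DNA strand of GT repeats), COOH SWCNT (carboxylated nanotubes), AAV (adeno-associated virus, used for gene delivery), Fura-2 (a calcium indicator) and a pair of voltage-sensitive dyes, DiBASC2 and Di-2-ANEPEQ. Doses, and whether the 3 libraries of a group came from separate wells or days, are not given in the sources used here, so p-values measure the spread between these libraries, which may be technical. All groups share the serum-free step and the untreated controls.

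Library totals were 17364272 to 29259221 counts. Of 12 microglial and macrophage markers, 11 were tested, with Csf1r at 461 to 553 CPM and Cd68 at 724 to 989 CPM, while Tmem119 and P2ry12 were at 1.54 to 5.32 CPM and Sall1, a defining microglial factor, at 0 to 2 counts. The summed markers ran from 2301 to 2608 CPM over all libraries and their ranges overlapped between LPS, both nanotube groups and control. Summed astrocyte markers stayed at or below 0.739 CPM, neuronal ones at or below 1.03 CPM and fibroblast ones at or below 0.379 CPM. Summed oligodendrocyte markers were at 3.51 to 5.80 CPM over all libraries, most of it Mbp at 58 to 147 counts, with Mog at 0. Of 4 endothelial markers, Cldn5 had 0 counts and Pecam1 and Cdh5 at most 9 in any library, while Kdr made up nearly all of a sum of 128 to 138 CPM in control, 90.8 to 102 CPM in LPS and 102 to 109 CPM in (GT)6 SWCNT. These are bulk libraries, so a different share of responding cells and a different amount of RNA per cell cannot be told apart. Index numbers in the labels run in blocks by group, so library order and treatment cannot be told apart.

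In untreated cells, the solute carrier with the most transcript per length was Slc25a5, the adenine nucleotide translocator that exchanges ADP for ATP across the inner mitochondrial membrane, at 526 CPM per kb of exon. Slc25a4, a second translocator of that kind, followed at 109 CPM per kb, and Slc25a3, the mitochondrial phosphate carrier, stood at 77.1 CPM per kb. Non-mitochondrial genes near that level per length were the zinc importer Slc39a1 at 78.4, Slc11a1 (Nramp1, which pumps iron and manganese out of phagosomes) at 73.2 and the glutamine carrier Slc1a5 at 62.6 CPM per kb. The 189 genes together took 12481 to 12506 CPM in the control libraries. Their sum lay above that range in every LPS library (13167 to 13273 CPM), every (GT)6 SWCNT library (13029 to 13260 CPM) and every COOH SWCNT library (13030 to 13220 CPM). In DiBASC2 it lay below the control range in every library, at 11869 to 12242 CPM. These CPM are scaled by a factor per library (TMM), so the sums depend on it and are not shares of all counts. The factor was 1.002 to 1.015 in control, 0.955 to 0.964 in LPS and 1.021 to 1.031 in DiBASC2. It was 0.979 to 0.983 in (GT)6 SWCNT and 1.001 to 1.012 in COOH SWCNT. Sums without the factor were not compared.

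A gene was called where the adjusted p (edgeR quasi-likelihood test, Benjamini-Hochberg over all 13116 genes) was under 0.05. In LPS, 72 of the 189 solute carriers were called (38.1%, where 28.3% of all genes tested were called), 35 higher (18.5% against 13.8%) and 37 lower (19.6% against 14.5%). With upper-quartile scaling 24 of 66 called genes were higher, so the balance between the directions in LPS depends on the scaling. (GT)6 SWCNT called 51 where 20.4% of all genes were called, 27 higher (14.3% against 9.9%) and 24 lower (12.7% against 10.5%). COOH SWCNT called 37 (19.6% against 20%), near the background, but 31 of them were higher (16.4% against 9.39%) and 6 lower (3.17% against 10.6%). All these comparisons share the same 3 control libraries.

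The remaining treatments called few. DiBASC2 called 18 solute carriers (9.52%, with 5.47% of all genes), 2 higher (1.06% against 1.82%) and 16 lower (8.47% against 3.64%). AAV called 6 (3.17% against 5.0%), 3 in each direction (where 1.84% of all genes were called higher and 3.16% lower), and Di-2-ANEPEQ called 1 (0.529% against 3.08%). Fura-2 called none by edgeR, with 0.252% of all genes called, while 20 of the 189 had an unadjusted p under 0.05; the DESeq2 test also called none, with 18 under an unadjusted 0.05. Of the 189 genes, 89 were called in none of the 7 treatments.

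Changes were small in size. Called changes of at least 1 on the log2 scale numbered 4 in LPS (2.12% of the 189, 4.21% of all genes tested), 3 in (GT)6 SWCNT (1.59% against 1.52%) and 2 in COOH SWCNT (1.06% against 1.03%). The 4 in LPS were Slc2a6, Slc11a2, Slc25a25 and Slc31a2, which carry glucose, iron, ATP and copper respectively. The 3 in (GT)6 SWCNT were Slc1a1, Slc20a1 and Slc25a25, and the 2 in COOH SWCNT were Slc1a1 and Slc26a9. Slc1a1 passed the filter through the nanotube libraries alone and had to differ there. In COOH SWCNT the call of Slc1a1 was lost without control replicate 1, and that of Slc26a9 without control replicate 1 or COOH SWCNT replicate 1. The nanotube counts of this size are therefore a description. The median log2 fold change over the 189 genes was −0.02 in LPS, against −0.01 over all genes tested. Of the called genes, 48 of 72 in LPS, 37 of 51 in (GT)6 SWCNT, 21 of 37 in COOH SWCNT and 12 of 18 in DiBASC2 were called under every alternative processing and without any single library. Genes named below as changed are among these unless a loss is stated.

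**Figure D1:**
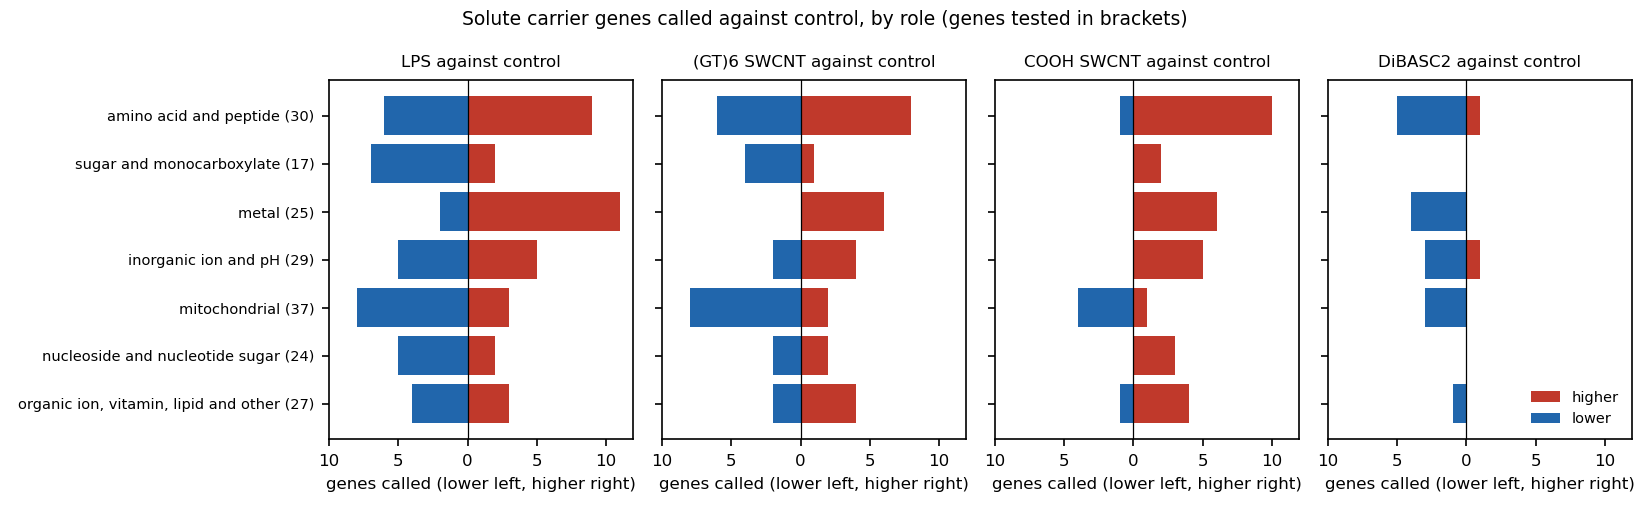
Number of solute carrier genes called lower (bars to the left, blue) and higher (bars to the right, red) against control, by role group (rows, genes tested in brackets), in LPS, (GT)6 SWCNT, COOH SWCNT and DiBASC2. Role groups follow the family number alone. Metal carriers were called higher 11 times and lower 2 times in LPS, mitochondrial carriers 3 and 8 times, and no gene of the sugar or nucleoside groups was called in DiBASC2.

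Of the 25 metal carriers, LPS called 11 higher and 2 lower, where 13.8% and 14.5% of all genes tested were called in those directions. Higher were 6 genes whose proteins bring iron, copper or zinc into the cytosol (Slc11a2, Slc31a1, Slc31a2, Slc39a1, Slc39a2 and Slc39a14), the magnesium carrier Slc41a1, and 4 zinc carriers of intracellular membranes (Slc30a4, Slc30a6, Slc30a7 and Slc30a9), each of which lost its call in at least 1 alternative. Lower were the exporters Slc40a1 and Slc30a1. With upper-quartile scaling 8 were higher and 2 lower. The largest change was in Slc11a2 (ENSMUSG00000023030.16, chromosome 15, 100387898 to 100425072), DMT1, which brings ferrous iron into the cytosol from outside and from endosomes. It stood at 110.4, 112 and 109 CPM in the control libraries and at 253, 258 and 250.2 CPM in LPS, a rise of 1.20 ± 0.04 (SE, adjusted p 4.88e-23) on the log2 scale. In (GT)6 SWCNT it was at 148, 145 and 133 CPM and in COOH SWCNT at 119, 129 and 134 CPM. Every nanotube library was above every control library and far below every LPS library. The log2 fold changes were 0.37 ± 0.05 (SE, adjusted p 4.73e-08) for (GT)6 SWCNT and 0.20 ± 0.05 (SE, adjusted p 0.00118) for COOH SWCNT, and in DiBASC2 the gene fell, by 0.24 (adjusted p 0.000553).

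Slc31a2 (ENSMUSG00000066152.11, chromosome 4, 62262562 to 62298411), CTR2, a copper carrier of endosomes and lysosomes, was at 24.5, 23.5 and 24.6 CPM in control and 52.7, 54.7 and 55.5 CPM in LPS (1.17 ± 0.06 (SE, adjusted p 1.03e-18)). The levels in (GT)6 SWCNT were 33.3, 35.04 and 31.9 CPM and in COOH SWCNT 27.1, 27.6 and 29.3 CPM, each above every control library. Here the call for (GT)6 SWCNT (0.47 ± 0.06 (SE, adjusted p 1.78e-07)) held throughout, and that for COOH SWCNT (0.21 ± 0.06 (SE, adjusted p 0.0138)) was lost without control replicate 2 or COOH SWCNT replicate 3, with an adjusted p up to 0.0743. Slc31a1, CTR1, the copper importer of the plasma membrane, rose in LPS by 0.30 ± 0.05 (SE, adjusted p 1.59e-05) and was not called in either nanotube group. Slc39a14 (ENSMUSG00000022094.15, chromosome 14, 70303469 to 70351425), ZIP14, which imports zinc and non-transferrin iron, was at 88.2, 87.8 and 79.7 CPM in control and 145, 132 and 136 CPM in LPS (0.69 ± 0.05 (SE, adjusted p 3.62e-15)). All 3 LPS libraries were above all other 21 libraries, which ran from 72.3 to 98.1 CPM. The zinc importers Slc39a1 and Slc39a2 also rose in LPS, Slc39a1 by 0.40 ± 0.04 (SE, adjusted p 1.37e-09) and Slc39a2 by 0.41 ± 0.09 (SE, adjusted p 0.000514). These rises were not confined to LPS. In (GT)6 SWCNT, Slc39a2 rose by 0.39 (adjusted p 0.0015). Slc39a14 rose there by 0.17 (adjusted p 0.00659), a call lost without control replicate 3 (adjusted p 0.0872). Slc39a1 was called in COOH SWCNT (0.12, adjusted p 0.044), a call lost in 5 alternatives (adjusted p up to 0.288). Slc39a2 shares exon positions with Mettl17.

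Slc40a1 (ENSMUSG00000025993.10, chromosome 1, 45908068 to 45926523) encodes ferroportin, the iron exporter, and stood at 47.9, 44.8 and 43.4 CPM in control and 37.01, 30.8 and 31.7 CPM in LPS. Slc30a1 (ENSMUSG00000037434.7, chromosome 1, 191906767 to 191913247), ZnT1, exports zinc at the plasma membrane and was at 25.2, 23.8 and 23.6 CPM in control and 14.4, 13.1 and 14.03 CPM in LPS. In both, each LPS library was below each control library, with log2 fold changes of −0.45 ± 0.07 (SE, adjusted p 7.2e-07) and −0.81 ± 0.08 (SE, adjusted p 1.49e-10). Neither was called in (GT)6 SWCNT (Slc40a1 −0.02 ± 0.06, Slc30a1 −0.02 ± 0.07) or COOH SWCNT (Slc40a1 0.00 ± 0.06, Slc30a1 0.11 ± 0.07). The direct contrasts with LPS were called: Slc40a1 was higher by 0.43 ± 0.07 (SE, adjusted p 2.49e-06) in (GT)6 SWCNT and by 0.46 ± 0.06 (SE, adjusted p 4.58e-07) in COOH SWCNT, and Slc30a1 by 0.78 ± 0.08 (SE, adjusted p 4.1e-10) and 0.92 ± 0.08 (SE, adjusted p 3.26e-12). Slc30a1 overlaps the antisense-lying gene 1700034H15Rik, which was at 0.558 to 1.09 CPM in the 4 groups and was not called in LPS (−0.88, adjusted p 0.0621).

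In each nanotube group 6 of the 25 metal carriers were called higher, where 9.9% of all genes tested were in (GT)6 SWCNT and 9.39% in COOH SWCNT, and none lower. The 6 in COOH SWCNT became 2 without COOH SWCNT replicate 3, and 4 without its replicate 1 or without control replicate 1 or 2. Among the 6 in (GT)6 SWCNT, Slc39a10, ZIP10, a zinc importer, rose by 0.36 ± 0.04 (SE, adjusted p 3.96e-08). Its level was 99.5, 96.9 and 93.98 CPM in control, 126, 128 and 119.6 CPM in (GT)6 SWCNT and 101, 95.4 and 96.9 CPM in COOH SWCNT. The difference between the nanotubes was itself called (0.35 ± 0.04 (SE, adjusted p 2.65e-07)), and so was that from LPS (0.43 ± 0.04 (SE, adjusted p 5.85e-10)). Slc41a1, a magnesium carrier, rose in LPS (0.26 ± 0.07 (SE, adjusted p 0.00229)) and in COOH SWCNT (0.28 ± 0.07 (SE, adjusted p 0.00175)). Slc11a1, at 252 to 294 CPM over all 24 libraries, was called in no comparison, including LPS (0.08 ± 0.03). DiBASC2 called 4 metal carriers, all lower, where 3.64% of all genes tested were called lower. They were the importers Slc11a2, Slc39a10 (−0.21 ± 0.04 (SE, adjusted p 0.00274)), Slc39a6 (−0.21 ± 0.04 (SE, adjusted p 0.000354)) and Slc39a14 (−0.18 ± 0.05 (SE, adjusted p 0.0161)), the last of these lost in 4 alternatives, with an adjusted p up to 0.118.

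**Figure D2:**
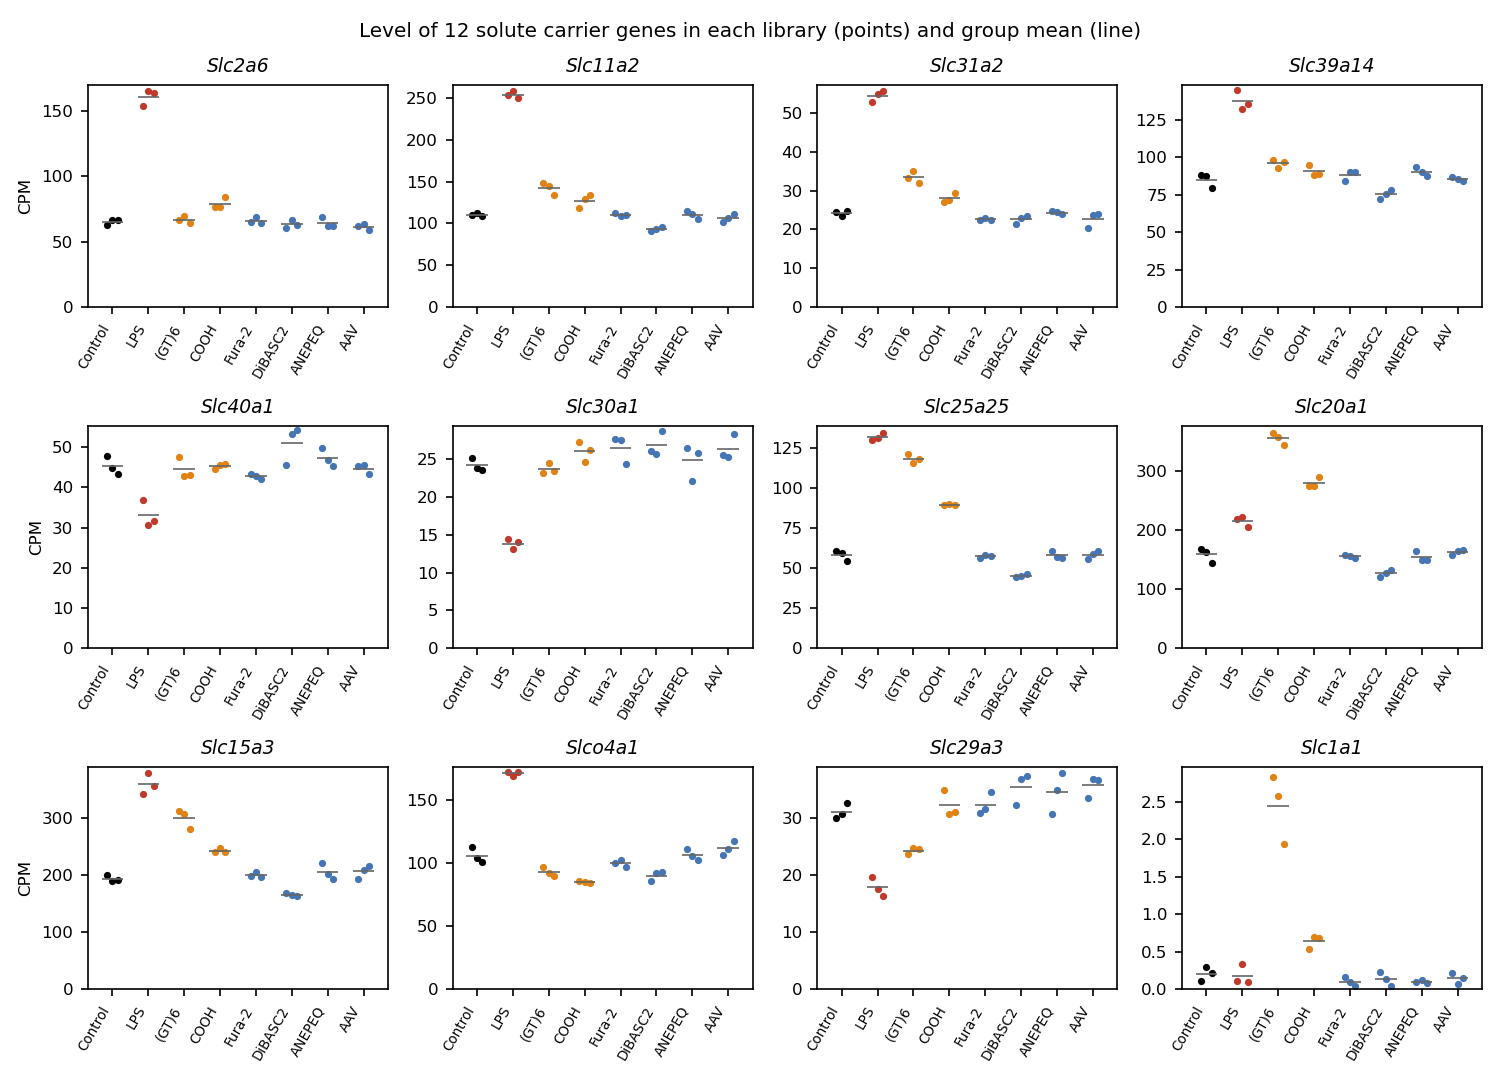
Level in CPM (vertical axis, from 0) of 12 solute carrier genes in each of 24 libraries (points), with the group mean as a line; black is control, red LPS, orange the 2 nanotube groups and blue the dyes and AAV. Slc2a6, Slc11a2, Slc31a2, Slc39a14 and Slco4a1 are highest in LPS, Slc40a1, Slc30a1 and Slc29a3 are lowest there, and Slc20a1 and Slc1a1 are highest in (GT)6 SWCNT.

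The promoters of the genes with the largest rises in LPS are shown because these genes rose together in LPS and differed in the nanotube groups. They are the 250 bases before a RefSeq transcript start (build GRCm38.p6), 5′ to 3′ on the gene's strand, and 145 of the 189 genes had such a window. Slc11a2 is named only. Slc25a25 has 3 windows, and the one shown, which holds a match, was chosen after the search; capitals mark the cAMP response element TGACGTCA, from 150 to 143 bases before the start.
Slc2a6, chr2:27027999-27028248, minus strand: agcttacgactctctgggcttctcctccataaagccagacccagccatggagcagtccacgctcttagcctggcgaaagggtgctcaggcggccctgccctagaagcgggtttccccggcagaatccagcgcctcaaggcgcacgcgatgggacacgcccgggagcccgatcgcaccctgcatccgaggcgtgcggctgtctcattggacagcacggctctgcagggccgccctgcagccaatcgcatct
Slc31a2, chr4:62286179-62286428, plus strand: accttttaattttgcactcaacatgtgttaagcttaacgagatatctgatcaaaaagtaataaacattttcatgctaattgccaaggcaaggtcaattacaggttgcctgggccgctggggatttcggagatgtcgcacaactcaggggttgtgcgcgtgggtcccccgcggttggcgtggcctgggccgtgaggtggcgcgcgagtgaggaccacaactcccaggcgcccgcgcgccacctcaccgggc
Slc25a25, chr2:32424067-32424316, minus strand: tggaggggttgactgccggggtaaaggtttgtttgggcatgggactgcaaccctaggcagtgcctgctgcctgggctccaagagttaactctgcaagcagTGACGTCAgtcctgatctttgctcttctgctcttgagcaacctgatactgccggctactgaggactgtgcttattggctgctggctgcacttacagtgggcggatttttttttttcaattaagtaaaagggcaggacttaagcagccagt
Both strands were searched for AP-1 (TGANTCA), NF-kB, the CCAAT/ATF composite (TGATGNAA) and, added after the values were seen, the cAMP response element. The other 2 windows hold none of the 4. Of 32851 windows of all genes, 6.75% held AP-1, 7.25% NF-kB, 3.45% the composite and 1.55% the cAMP response element. Of 199 windows of solute carriers, 13, 18, 4 and 3 held them (6.53%, 9.04%, 2.01% and 1.51%). A match is a string of letters and not a measured binding site.

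Among the 17 genes of the sugar and monocarboxylate families, LPS called 2 higher and 7 lower, where 13.8% and 14.5% of all genes tested were. The role groups follow the family number alone, so this group also holds carriers of other cargo, among them Slc16a10 and Slc5a6. The higher one of largest size was Slc2a6 (ENSMUSG00000036067.12, chromosome 2, 27021363 to 27027998), GLUT6, a glucose carrier of lysosomes, with the largest rise of all 189 genes in LPS. It was at 62.3, 66.5 and 66.4 CPM in control and 154, 165 and 164 CPM in LPS (1.30 ± 0.05 (SE, adjusted p 7.69e-23)). Its level in (GT)6 SWCNT was 66.3, 69.4 and 63.98 CPM (0.03 ± 0.05, adjusted p 0.722) and in COOH SWCNT 76.3, 76.7 and 84.1 CPM (0.28 ± 0.05 (SE, adjusted p 7.15e-05)). The LPS libraries exceeded all 21 others, the (GT)6 SWCNT libraries overlapped the controls and the COOH SWCNT libraries lay above them. Slc2a6 was higher in COOH SWCNT than in (GT)6 SWCNT, by 0.25 on the log2 scale (adjusted p 0.000402). Slc16a10, which carries aromatic amino acids, was the other and rose in LPS (0.37 ± 0.04 (SE, adjusted p 4.34e-09)), (GT)6 SWCNT (0.19 ± 0.04 (SE, adjusted p 0.000773)) and COOH SWCNT (0.16 ± 0.04 (SE, adjusted p 0.00486)).

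The 7 lower ones in LPS included 3 of the Slc37 family of sugar-phosphate exchangers. Slc37a2, rich in macrophages, was at 92.3, 96.01 and 96.2 CPM in control and 67.7, 67.6 and 72.5 CPM in LPS (−0.45 ± 0.05 (SE, adjusted p 2.09e-09)), Slc37a4, which feeds glucose-6-phosphate to the endoplasmic reticulum, fell by 0.43 (adjusted p 2.54e-05), and Slc37a3 fell by 0.37 (adjusted p 2.17e-06). Slc45a4 fell by 0.52 in LPS (adjusted p 3.83e-10) and by 0.24 in (GT)6 SWCNT (adjusted p 0.000749). Slc5a6, the carrier of biotin and pantothenate, fell by 0.31 in LPS (adjusted p 6.1e-05) and by 0.34 in (GT)6 SWCNT (adjusted p 2.21e-05). Its exons overlap Atraid on the other strand, which was at 23.6 CPM in control. Atraid was called lower in LPS (−0.19, adjusted p 0.0454) and COOH SWCNT (−0.24, adjusted p 0.0149) but not in (GT)6 SWCNT (adjusted p 0.471). Its part in the values of Slc5a6 was not tested. In (GT)6 SWCNT 1 of the 17 was called higher and 4 lower, where 9.9% and 10.5% of all genes tested were. In COOH SWCNT 2 were called higher and none lower, where 9.39% and 10.6% of all genes tested were. The 4 lower in (GT)6 SWCNT became 2 without (GT)6 SWCNT replicate 2. Between the nanotube groups 6 of the 17 were called, all lower in (GT)6 SWCNT, where 9.48% of all genes tested were. Of these, Slc2a6, Slc45a4 and Slc5a6 were called in every alternative, while Slc37a1, Slc37a3 and Slc37a4 were lost in 4 to 6 of them, Slc37a1 and Slc37a3 also with length and GC trends removed.

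Among the 30 genes of the amino acid and peptide families, LPS called 9 higher and 6 lower, (GT)6 SWCNT 8 and 6, and COOH SWCNT 10 and 1. Over all genes tested, LPS called 13.8% higher and 14.5% lower, (GT)6 SWCNT 9.9% and 10.5%, and COOH SWCNT 9.39% and 10.6%. The 9 higher in LPS include Slc7a6os, which is not a transporter and lost its call in 7 alternatives. The counts in LPS became 4 higher and 6 lower with upper-quartile scaling, 4 and 5 without LPS replicate 1, 5 and 6 without control replicate 1, and 7 and 3 without control replicate 3. Slc15a3 (ENSMUSG00000024737.2, chromosome 19, 10839727 to 10859362), a lysosomal carrier of histidine and of small peptides, among them bacterial muramyl dipeptide, rose in all 3 of these groups. Control libraries were at 200.01, 189.97 and 191 CPM and LPS libraries at 342, 379 and 355 CPM. Those of (GT)6 SWCNT were at 312, 307 and 281 CPM and those of COOH SWCNT at 241, 247 and 241 CPM. The 4 groups did not overlap, in the order LPS, (GT)6 SWCNT, COOH SWCNT and control. The log2 fold changes were 0.89 ± 0.05 (SE, adjusted p 2.8e-18), 0.63 ± 0.05 (SE, adjusted p 1.54e-13) and 0.33 ± 0.05 (SE, adjusted p 1.99e-06), and the differences of LPS from (GT)6 SWCNT and of (GT)6 SWCNT from COOH SWCNT were called (−0.26 ± 0.05 for (GT)6 SWCNT against LPS, 0.31 ± 0.05 for (GT)6 SWCNT against COOH SWCNT). In DiBASC2 it fell by 0.23 (adjusted p 0.00222). Of its exon bases, 28.1% overlap Tmem132a on the other strand, which was at 2.34 to 3.30 CPM in these groups. Slc15a4, the related lysosomal carrier needed for endosomal Toll-like receptor signalling, was called in no comparison (0.05 ± 0.05 in LPS).

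Heteromeric amino acid exchangers pair a light chain of the Slc7 family with a shared heavy chain, and the calls among them were small in size. Slc7a8, LAT2, a carrier of neutral amino acids, rose by 0.39 ± 0.05 (SE, adjusted p 1.47e-07) in LPS, 0.22 ± 0.05 (SE, adjusted p 0.00215) in (GT)6 SWCNT and 0.31 ± 0.05 (SE, adjusted p 2.38e-05) in COOH SWCNT. Slc7a7, which exports cationic amino acids, rose in LPS by 0.42 ± 0.08 (SE, adjusted p 3.2e-05); the calls in (GT)6 SWCNT (0.29) and COOH SWCNT (0.24) were lost without control replicate 2 (adjusted p up to 0.0695 and 0.167), the latter also without COOH SWCNT replicate 2 or the low-count filter. Slc3a2, the heavy chain, rose in (GT)6 SWCNT (0.17 ± 0.04 (SE, adjusted p 0.000829)) and by 0.12 in LPS, a call lost in 5 alternatives (adjusted p up to 0.144). Slc7a5, LAT1, was called only in COOH SWCNT among the treatments (0.18 ± 0.04 (SE, adjusted p 0.00259)) and stood at −0.02 in LPS and 0.07 in (GT)6 SWCNT. Slc7a1, an arginine importer, rose by 0.21 in (GT)6 SWCNT (adjusted p 0.000228) and by 0.20 in COOH SWCNT (adjusted p 0.000517), and fell by 0.20 in DiBASC2 (adjusted p 0.00201). Slc7a1 was also called higher in LPS, by 0.14 (adjusted p 0.00755). That call was lost with upper-quartile scaling and without LPS replicate 1 (adjusted p up to 0.0784). Slc7a2, an arginine importer that supplies nitric oxide synthesis in macrophages, stood at 0.17 in LPS, a call lost with upper-quartile scaling and without control replicate 1 or LPS replicate 1 (adjusted p up to 0.0637).

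Of the 6 called lower in LPS and the 6 in (GT)6 SWCNT, Slc36a1 and Slc43a2 had the largest falls in (GT)6 SWCNT. Slc36a1, which moves amino acids and protons out of lysosomes, was at 30.7, 36.3 and 37.97 CPM in control, 23.96, 24.2 and 23.3 CPM in LPS and 24.1, 24.9 and 27.7 CPM in (GT)6 SWCNT. Slc43a2, LAT4, an exporter of large neutral amino acids, was at 78.03, 75.7 and 80.6 CPM in control, 62.6, 54.2 and 58.8 CPM in LPS and 55.1, 56.1 and 59.4 CPM in (GT)6 SWCNT. The libraries of LPS and of (GT)6 SWCNT lay below every control library in both genes, with log2 fold changes of −0.56 ± 0.08 (SE, adjusted p 2.95e-07) and −0.46 ± 0.08 (SE, adjusted p 1.14e-05) for Slc36a1 and of −0.42 ± 0.06 (SE, adjusted p 1.81e-07) and −0.46 ± 0.06 (SE, adjusted p 3.89e-08) for Slc43a2. COOH SWCNT called neither (Slc36a1 −0.07 ± 0.07, Slc43a2 0.07 ± 0.05), and the 2 nanotube groups differed in both, by −0.39 ± 0.08 (adjusted p 0.00021) and −0.53 ± 0.06 (adjusted p 6.17e-09) for (GT)6 SWCNT against COOH SWCNT. Of the exon bases of Slc43a2, 9.2% overlap Gm45606 on the other strand, which showed a similar pattern, at 7.75 CPM in control, 4.43 CPM in LPS, 4.38 CPM in (GT)6 SWCNT and 6.31 CPM in COOH SWCNT. Gm45606 fell by 0.81 in LPS (adjusted p 8.87e-06) and by 0.83 in (GT)6 SWCNT (adjusted p 9.11e-06) and was not called in COOH SWCNT (adjusted p 0.0913), and its part in the values of Slc43a2 was not tested. Slc1a4, a carrier of alanine, serine and cysteine, was lower in LPS by −0.65 ± 0.20 (SE, adjusted p 0.0123), a call lost without control replicate 3 (adjusted p 0.0617), and was higher in (GT)6 SWCNT than in LPS (1.01 ± 0.19 (SE, adjusted p 9.16e-05)). Slc6a12, a betaine and GABA carrier, fell in (GT)6 SWCNT (−0.32 ± 0.05 (SE, adjusted p 1.85e-05)).

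Slc1a1 (ENSMUSG00000024935.10, chromosome 19, 28835049 to 28913960), EAAC1, a carrier of glutamate and cysteine, stood apart at low counts. Because only the libraries of the nanotube groups reached the level of the filter, it was tested through the groups where it is high and had to differ, so its values are a description. It lay under the minimum level of the rule for named genes and was picked after its values were seen. Control libraries held 2, 7 and 4 raw counts and LPS libraries 2, 7 and 2. The (GT)6 SWCNT libraries held 69, 60 and 33 counts and the COOH SWCNT libraries 14, 14 and 17, and no library of the other 4 groups held more than 6. The (GT)6 SWCNT libraries stood above all others, and the COOH SWCNT libraries between them and the rest. The log2 fold change was 3.50 ± 0.39 in (GT)6 SWCNT, 1.55 ± 0.47 in COOH SWCNT and 1.95 ± 0.31 between them (SE). The call in COOH SWCNT was lost without control replicate 1 (adjusted p 0.0944). Of the exon bases of Slc1a1, 31.9% overlap 4430402I18Rik on the other strand, which was at 0.0474 to 0.0609 CPM in control, LPS and the nanotube groups.

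Among the 29 carriers of inorganic ions and protons, LPS called 5 in each direction and (GT)6 SWCNT 4 higher and 2 lower. COOH SWCNT called 5 higher and none lower. Background shares, over all genes tested, were 13.8% higher and 14.5% lower for LPS. For (GT)6 SWCNT the background was 9.9% higher and 10.5% lower, so the counts of these 2 treatments are near it. The background of COOH SWCNT was 9.39% higher and 10.6% lower. The 5 lower in LPS became 3 without control replicate 3 or LPS replicate 3, and the 5 higher in COOH SWCNT became 3 without control replicate 1. The 2 lower in (GT)6 SWCNT became 1 without control replicate 3 or (GT)6 SWCNT replicate 1. Slc20a1 (ENSMUSG00000027397.14, chromosome 2, 129198764 to 129211616), PiT-1, a sodium-driven phosphate importer, was the called gene with the largest rise in both nanotube groups among those above the minimum level. Control libraries were at 168, 164 and 145 CPM and LPS libraries at 219, 221 and 205 CPM. The (GT)6 SWCNT libraries were at 365, 358 and 343 CPM and the COOH SWCNT libraries at 275, 274 and 289.7 CPM. No library of these 4 groups overlapped those of another, and the order was (GT)6 SWCNT, COOH SWCNT, LPS and control. The log2 fold changes against control were 1.16 ± 0.05 (SE, adjusted p 2.63e-21), 0.82 ± 0.05 (SE, adjusted p 4.53e-16) and 0.44 ± 0.05 (SE, adjusted p 9.9e-10). Both nanotube groups exceeded LPS, (GT)6 SWCNT by 0.73 ± 0.05 (SE, adjusted p 8.59e-16) and COOH SWCNT by 0.38 ± 0.05 (SE, adjusted p 1.45e-08), and (GT)6 SWCNT exceeded COOH SWCNT by 0.35 ± 0.04 (SE, adjusted p 4.4e-07). In DiBASC2 Slc20a1 fell to 121, 128 and 132 CPM (−0.32 ± 0.05 (SE, adjusted p 1.49e-05)). Of its exon bases, 13.1% overlap Gm4430 and 9830144P21Rik on the other strand, of which Gm4430 was at 5.22 to 5.88 CPM.

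Slc4a7, NBCn1, which takes up bicarbonate with sodium and acidifies phagosomes in macrophages, had its largest change in LPS. It was at 87.4, 92.3 and 87.2 CPM in control and 160.1, 149.8 and 147 CPM in LPS (0.77 ± 0.04 (SE, adjusted p 4.44e-19)), and every LPS library exceeded all 21 others. The nanotube changes were 0.18 ± 0.04 (SE, adjusted p 0.000508) and 0.14 ± 0.04 (SE, adjusted p 0.00637). Slc8b1, NCLX, which lets calcium out of mitochondria in exchange for sodium, was instead highest in (GT)6 SWCNT: 33.5, 32.8 and 38.5 CPM in control, 51.2, 50.9 and 49.4 CPM in (GT)6 SWCNT and 42.7, 41.3 and 41.8 CPM in LPS. The change was 0.54 ± 0.06 (SE, adjusted p 9.2e-10) in (GT)6 SWCNT and 0.27 ± 0.06 (SE, adjusted p 0.000323) in LPS, and (GT)6 SWCNT exceeded LPS by 0.27 ± 0.05 (SE, adjusted p 0.000205). Slc9a8, a sodium-proton exchanger of the Golgi, rose in COOH SWCNT (0.35 ± 0.06 (SE, adjusted p 1.34e-05)).

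Of the 4 Slc26 anion exchangers tested, 3 were called lower in LPS, where 14.5% of all genes tested were. Slc26a11, a sulphate and chloride carrier, was at 5.99, 6.51 and 5.82 CPM in control libraries and at 2.55, 3.81 and 3.74 CPM under LPS. With (GT)6 SWCNT it was at 3.98, 3.396 and 4.04 CPM and with DiBASC2 at 10.1, 8.24 and 8.64 CPM. LPS and (GT)6 SWCNT libraries lay below the controls and DiBASC2 libraries above them, with changes of −0.85 ± 0.15 (SE, adjusted p 2.24e-05), −0.69 ± 0.15 (SE, adjusted p 0.000441) and 0.55 ± 0.12 (SE, adjusted p 0.00441). Slc26a2, a sulphate importer, fell by 0.43 in LPS (adjusted p 0.000157). Slc26a6 was at −0.42 (adjusted p 0.0123), lost without control replicate 3 or LPS replicate 3. Slc26a9, also picked after its values were seen, held 1, 18 and 14 counts in the control libraries and 45, 25 and 22 in those of COOH SWCNT. It was called in COOH SWCNT (1.24, adjusted p 0.024) and lost without control replicate 1 or COOH SWCNT replicate 1 (adjusted p up to 0.179).

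Among the 37 mitochondrial carriers LPS called 3 higher and 8 lower, (GT)6 SWCNT 2 and 8, and COOH SWCNT 1 and 4. In these groups 14.5%, 10.5% and 10.6% of all genes tested were called lower, so the 4 in COOH SWCNT are near the background. Called higher were 13.8%, 9.9% and 9.39% of all genes tested, larger shares than among the mitochondrial carriers. The 8 lower in (GT)6 SWCNT became 4 without control replicate 3 and 5 without (GT)6 SWCNT replicate 2. Without control replicate 3, COOH SWCNT replicate 1 or COOH SWCNT replicate 3, and with no low-count filter, the 4 in COOH SWCNT became 2. Slc25a25 (ENSMUSG00000026819.15, chromosome 2, 32414487 to 32451445), a calcium-regulated carrier that exchanges ATP-magnesium for phosphate, was called higher in all 3. Control libraries were at 60.5, 59.5 and 54.7 CPM and LPS libraries at 129.9, 132 and 135 CPM. The levels with (GT)6 SWCNT were 121, 116 and 118 CPM and with COOH SWCNT 89.3, 90.1 and 89.4 CPM, each above every control library. In DiBASC2 the libraries were at 44.3, 45.2 and 46.5 CPM. None of these 5 groups overlapped another. The log2 fold changes were 1.18 ± 0.04 (SE, adjusted p 1.83e-23), 1.02 ± 0.04 (SE, adjusted p 8.09e-21) and 0.62 ± 0.04 (SE, adjusted p 8.55e-14), and in DiBASC2 −0.36 ± 0.05 (SE, adjusted p 6.1e-07). Slc25a33, a pyrimidine nucleotide carrier, rose in LPS (0.30 ± 0.06 (SE, adjusted p 0.000124)) and fell in DiBASC2 (−0.35 ± 0.06 (SE, adjusted p 0.000243)), and its exons overlap Gm13068, which had 0 CPM.

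The lower mitochondrial carriers included both iron importers of the organelle. Slc25a28, mitoferrin 2, fell in LPS by 0.28 (adjusted p 0.000759) and in (GT)6 SWCNT by 0.36 (adjusted p 4.86e-05). Its call in COOH SWCNT (−0.20, adjusted p 0.0219) was lost in 5 alternatives (adjusted p up to 0.0841): with no low-count filter and without control replicate 2, control replicate 3, COOH SWCNT replicate 1 or COOH SWCNT replicate 3. Slc25a37, mitoferrin 1, was at 51.8, 50.5 and 49.9 CPM in control, 42.6, 41.8 and 43.8 CPM in (GT)6 SWCNT and 40.7, 44.1 and 43.5 CPM in COOH SWCNT. It fell in both (−0.25 ± 0.05 (SE, adjusted p 0.000344) and −0.25 ± 0.05 (SE, adjusted p 0.000401)), and LPS stood at 0.05 ± 0.05, which was not called. Against LPS both nanotube groups were lower (−0.30 ± 0.05 (SE, adjusted p 2.04e-05) and −0.30 ± 0.05 (SE, adjusted p 1.03e-05)). Slc25a15, the ornithine carrier of the urea cycle, fell in (GT)6 SWCNT by 0.27 (adjusted p 0.00655), and Slc25a4, an ADP and ATP exchanger, in COOH SWCNT by 0.17 (adjusted p 0.00456). Slc25a24, another ATP-magnesium carrier, fell in LPS by 0.26 (adjusted p 3.39e-05).

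Among the 24 carriers of nucleosides and nucleotide sugars, LPS called 2 higher and 5 lower, (GT)6 SWCNT 2 in each direction and COOH SWCNT 3 higher and none lower. Of all genes tested, LPS called 13.8% higher and 14.5% lower, and COOH SWCNT 9.39% and 10.6%. (GT)6 SWCNT called 9.9% and 10.5% of all genes tested, so its counts here are near the background. The 2 higher in LPS became 0 without control replicate 1, control replicate 2 or LPS replicate 2, and 1 without LPS replicate 1. The 3 higher in COOH SWCNT became 1, with 1 lower, without COOH SWCNT replicate 2, and leaving out control replicate 1 or 2 also gave 1 lower. In (GT)6 SWCNT the counts ran from 1 to 2 higher and from 2 to 4 lower, with 4 lower without control replicate 1 and 3 without (GT)6 SWCNT replicate 3. Slc29a3 (ENSMUSG00000020100.15, chromosome 10, 60712072 to 60752794), ENT3, which lets nucleosides out of lysosomes and whose loss causes histiocytosis in humans, was at 30.00, 30.8 and 32.6 CPM in control and 19.6, 17.6 and 16.3 CPM in LPS. In (GT)6 SWCNT it was at 23.6, 24.8 and 24.5 CPM and in COOH SWCNT at 34.9, 30.8 and 31.1 CPM. The LPS libraries were lowest, the (GT)6 SWCNT libraries next, and the COOH SWCNT libraries overlapped the controls. Changes were −0.81 ± 0.08 (SE, adjusted p 2.48e-10) in LPS, −0.36 ± 0.08 (SE, adjusted p 0.000591) in (GT)6 SWCNT and 0.05 ± 0.07 in COOH SWCNT, and the nanotube groups differed (−0.41 ± 0.08 (SE, adjusted p 0.00011) for (GT)6 SWCNT against COOH SWCNT). Slc28a2, a sodium-driven nucleoside importer, was higher in LPS by 0.77 ± 0.25 (SE, adjusted p 0.0184) at 24 to 61 counts, a call lost without control replicate 1, control replicate 2 or LPS replicate 2 (adjusted p up to 0.091). Slc35c1, the GDP-fucose carrier of the Golgi, fell by 0.25 in LPS (adjusted p 0.000309) and by 0.24 in (GT)6 SWCNT (adjusted p 0.000871).

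Among the 27 carriers of organic ions, vitamins, lipids and other cargo, LPS called 3 higher and 4 lower. (GT)6 SWCNT called 4 higher and 2 lower, and COOH SWCNT 4 higher and 1 lower. With 13.8% of all genes tested called higher in LPS and 14.5% lower, the LPS counts are near the background. So are those of (GT)6 SWCNT, whose background was 9.9% higher and 10.5% lower. COOH SWCNT had a background of 9.39% higher and 10.6% lower. The 4 lower in LPS became 2 without LPS replicate 2, and the 2 lower in (GT)6 SWCNT became 4 without (GT)6 SWCNT replicate 3. Slco4a1 (ENSMUSG00000038963.15, chromosome 2, 180456245 to 180474867), which takes up organic anions such as thyroid hormone, moved in opposite directions. Control libraries were at 113, 104 and 101 CPM and LPS libraries at 172, 169 and 172 CPM. The levels with (GT)6 SWCNT were 96.7, 92.1 and 89.9 CPM and with COOH SWCNT 86.03, 85.1 and 84.00 CPM. Every LPS library was above, and every nanotube library below, all control libraries. The changes were 0.69 ± 0.04 (SE, adjusted p 6.91e-16), −0.19 ± 0.04 (SE, adjusted p 0.00208) and −0.32 ± 0.04 (SE, adjusted p 1.66e-06), and in DiBASC2 −0.23 ± 0.04 (SE, adjusted p 0.000818). Against LPS the nanotube groups were lower by 0.88 and 1.01 on the log2 scale (adjusted p 9.59e-19 and 1.24e-20).

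Slc23a2, the ascorbate importer SVCT2, rose in all 3 responding groups, by 0.30 ± 0.04 (SE, adjusted p 2.13e-07) in LPS, 0.36 ± 0.04 (SE, adjusted p 1.09e-08) in (GT)6 SWCNT and 0.28 ± 0.04 (SE, adjusted p 2.94e-06) in COOH SWCNT. Slc27a1, a fatty acid carrier, rose with both nanotubes (0.30 ± 0.04 (SE, adjusted p 3.14e-07) and 0.20 ± 0.04 (SE, adjusted p 0.000401)) and was at −0.06 ± 0.04 in LPS; the differences from LPS were called (0.36 ± 0.04 and 0.25 ± 0.04, adjusted p 7.22e-09 and 3.96e-06). Slc44a2, a choline carrier, rose with both nanotubes (0.25 ± 0.04 (SE, adjusted p 1e-05) and 0.17 ± 0.04 (SE, adjusted p 0.00152)) and stood at −0.12 in LPS (adjusted p 0.0227), a call lost in 4 alternatives, among them the fits without control replicate 2, LPS replicate 2 or LPS replicate 3 (adjusted p up to 0.179). Slc46a3, a lysosomal carrier, fell in LPS by 0.61 (adjusted p 0.000538). Slc48a1, which carries haem out of the endolysosome, fell by 0.14 in LPS (adjusted p 0.00341) and by 0.17 in (GT)6 SWCNT (adjusted p 0.000944). Slc13a3, a dicarboxylate carrier, was called in no comparison (−0.44 ± 0.25 in LPS), and Slco3a1 had 0 counts in every library and was not tested.

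**Figure D3:**
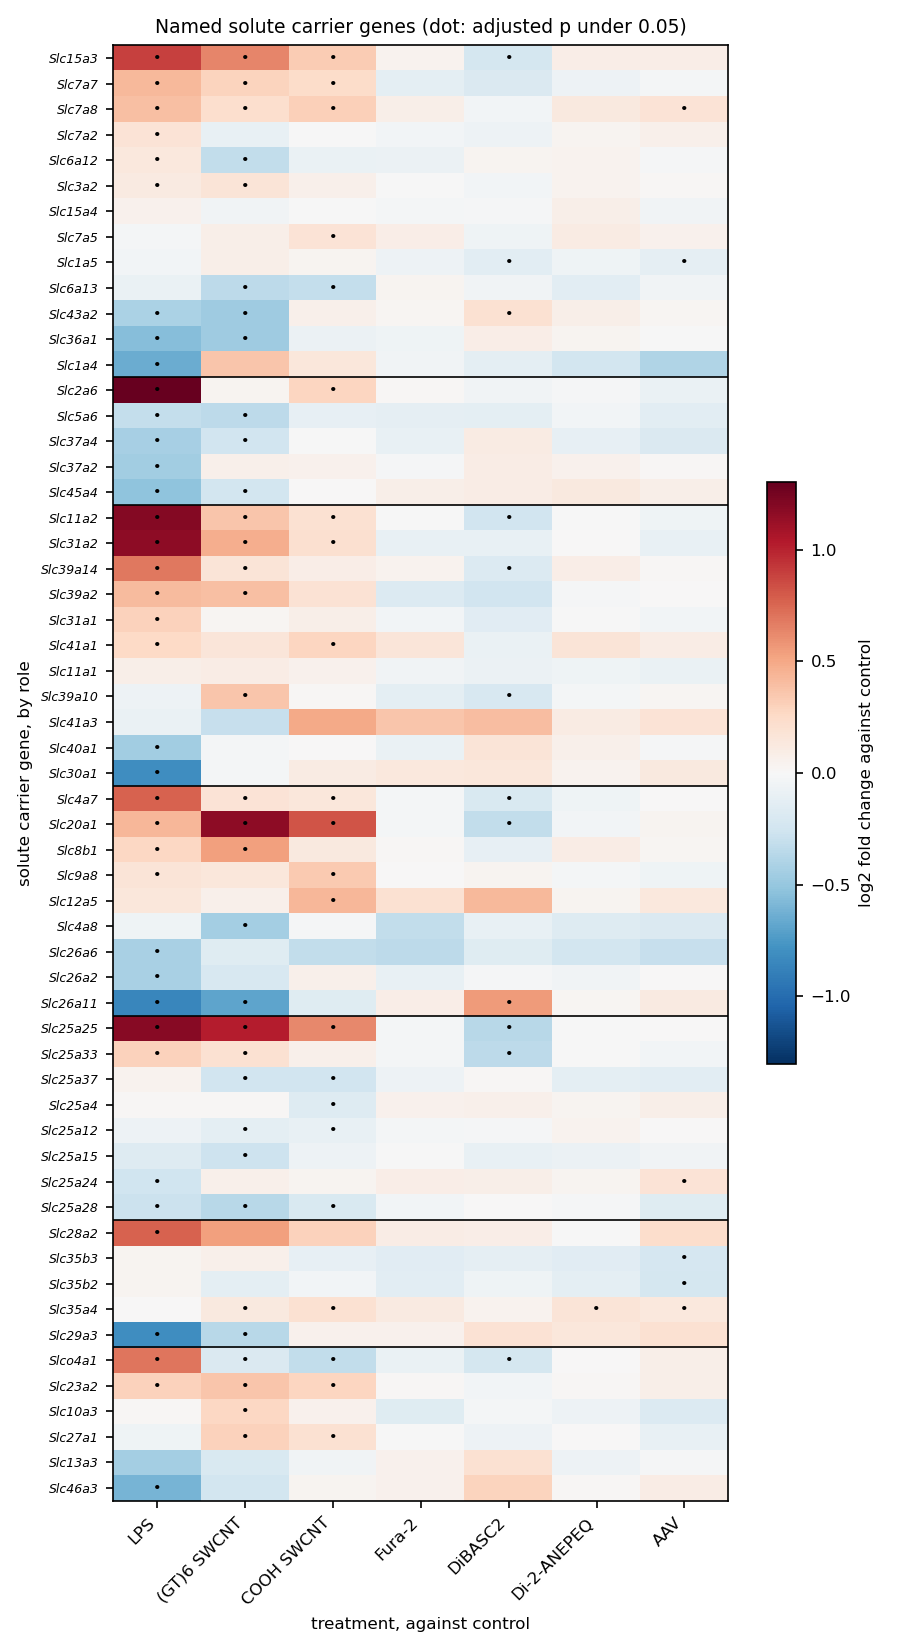
Log2 fold change against control (colour, red higher and blue lower) of the named solute carrier genes (rows, in role groups parted by lines) in 7 treatments (columns); a dot marks an adjusted p under 0.05. Slc25a25, Slc15a3 and Slc20a1 are dotted in LPS, both nanotube groups and DiBASC2, with the opposite sign in DiBASC2, and the Fura-2 column has no dot.

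Set against each other directly, (GT)6 SWCNT and LPS differed in 49 solute carriers (25.9%, with 21.6% of all genes called), 27 higher and 22 lower in (GT)6 SWCNT (14.3% and 11.6%, against 9.63% and 11.9% of all genes). With upper-quartile scaling these were 37 and 19. COOH SWCNT and LPS differed in 77 (40.7% against 37.8%), 52 higher and 25 lower in COOH SWCNT (27.5% and 13.2%, against 18.1% and 19.7%), which became 42 and 35 after removal of the trends with gene length and GC content. The largest differences from LPS above the minimum level were those of Slc2a6, at −1.27 ± 0.05 (SE, adjusted p 2.52e-22) for (GT)6 SWCNT and −1.02 ± 0.05 (SE, adjusted p 8.36e-20) for COOH SWCNT, and in COOH SWCNT those of Slco4a1 and Slc11a2 (−0.999 ± 0.05, adjusted p 1.26e-20).

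The nanotubes differed from each other in 46 solute carriers (24.3% against 21.4%), 12 higher and 34 lower in (GT)6 SWCNT (where 11.9% and 9.48% of all genes were called in those directions). That direction did not hold once the trends with length and GC content were removed, where 23 were higher and 22 lower, and only 18 of the 46 genes were called under every alternative. Without (GT)6 SWCNT replicate 1, 29 were called, and the same number without COOH SWCNT replicate 1. Slc20a1, Slc25a25 (0.40 ± 0.04 (SE, adjusted p 2.77e-09)), Slc15a3, Slc8b1 (0.41 ± 0.05 (SE, adjusted p 6.66e-07)), Slc39a10 and Slc31a2 (0.26 ± 0.06 (SE, adjusted p 0.00152)) were higher with (GT)6 SWCNT throughout. Slc43a2, Slc36a1, Slc29a3 and Slc2a6 were lower throughout.

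Of the 16 genes called lower in DiBASC2, the largest falls were those of Slc25a25, Slc25a33, Slc20a1 and Slc11a2, given with their roles above, and the smallest was that of Slc24a5 (−0.14, adjusted p 0.0451), a call lost in 10 alternatives (adjusted p up to 0.207). Slc38a2, a glutamine carrier induced by amino acid shortage, fell by 0.19 (adjusted p 0.00262). The 2 higher genes were Slc26a11 and Slc43a2 (0.20, adjusted p 0.0203), the latter lost without control replicate 1, control replicate 2 or DiBASC2 replicate 3. In AAV the calls were Slc7a8 (0.18), Slc25a24 (0.18) and Slc35a4 (0.14) higher, and Slc35b2 (−0.22) and Slc35b3 (−0.22), both carriers of the sulphate donor PAPS into the Golgi, and Slc1a5 (−0.12) lower. None of these 6 was called under every alternative, and none was called without AAV replicate 2. The single call in Di-2-ANEPEQ, Slc35a4, of the nucleotide sugar carrier family, was at 147, 150.1 and 142 CPM against 127, 132 and 132 CPM in control (0.17 ± 0.04 (SE, adjusted p 0.00446)), and the call was lost on leaving out Di-2-ANEPEQ replicate 2 or control replicate 1.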

How the data were processed

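The authors deposited 1 table of raw read counts per gene for the 24 libraries. Samples were grouped and numbered by their titles; the table spells DiBASC2 as DiSBAC2 and the labels spell Di-2-ANEPEQ in several ways. Reads were aligned with STAR 2.5.4b to GRCm38.p6, per the submitters' processing notes; the counting tool, strand setting and annotation release are not given in the sources used here. Because strand use is not stated, counts of genes that share exon positions cannot be told apart, which touches 59 of the 189 solute carriers. Symbols, positions and exon lengths came from GENCODE M21 (GRCm38), which 54809 of 54838 identifiers matched without their version.

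edgeR 4.0.16 (R 4.3.3) was run on these counts with filterByExpr, TMM factors, 1 quasi-likelihood model with a mean per group over all 24 libraries (16 residual degrees of freedom), and 10 two-sided contrasts, each adjusted by Benjamini-Hochberg over 13116 genes. The SE of a log2 fold change is its size divided by the square root of F. CPM use the TMM factors, and CPM per kb divides by the merged exon length. Replicate pairs differed by more than sampling noise (chi-square per degree of freedom 2.46 to 19.4), and each library counted as 1 replicate. The biological coefficient of variation was 4.12%. The fit was tested on simulated counts.

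Alternatives were the size factors and the test of DESeq2 1.42.0, upper-quartile scaling, leaving the low-count filter out or asking for 50 counts on average, a fit of the 2 groups alone, the replicate number as a block, each library left out in turn, and, chosen after seeing the data, removal of length and GC trends. Members, role groups, named genes, markers and alternatives were chosen with earlier results of these data known. Named were the called genes that averaged at least 2 CPM and whose libraries did not overlap between the compared groups, up to 12 highest and 12 lowest for LPS and each nanotube group against control and 5 otherwise, and 20 genes whatever their values. Called genes named outside this rule, after their values were seen, were Slc1a1, Slc7a1, Slc7a6os, Slc9a3r1, Slc16a10, Slc24a5, Slc26a9, Slc30a4, Slc30a6, Slc30a7, Slc30a9, Slc35c1, Slc37a1, Slc37a3, Slc38a2, Slc39a1, Slc39a6, Slc44a2 and Slc48a1.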

Additional observations from a re-analysis of the deposited data

How the results depend on the processing

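The counts of called solute carriers stayed within 1.5 times their value for LPS, (GT)6 SWCNT, COOH SWCNT and DiBASC2 against control and for both nanotube groups against LPS, under the alternatives that use all libraries and without any single library. Without 1 library they ran from 58 to 63 for LPS, 43 to 56 for (GT)6 SWCNT, 29 to 35 for COOH SWCNT, 12 to 18 for DiBASC2, 41 to 52 for (GT)6 SWCNT against LPS and 66 to 74 for COOH SWCNT against LPS, and stayed at 0 for Fura-2. Those of (GT)6 SWCNT against COOH SWCNT ran from 29 to 41. For Di-2-ANEPEQ the count of 1 became 2 with no low-count filter, with only the 2 groups compared and with length and GC trends removed, and 0 to 2 without 1 library, with none called when control replicate 1 or replicate 2 of the dye was left out. For AAV the count of 6 became 12 (6 in each direction) with length and GC trends removed, and 0 to 5 without 1 library: 0 without AAV replicate 2, 1 without control replicate 3, 2 without AAV replicate 3 or control replicate 1, and 3 without control replicate 2. The fits without 1 library hold fewer samples, and the cause of the other shifts was not tested. The higher and lower calls in AAV were 4 and 2 with DESeq2 size factors and 2 and 3 with upper-quartile factors. No alternative scaling moved the median log2 fold change of all genes by more than 0.0515, and no named gene reversed a call in these alternatives.

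The replicate numbers do not mark a shared source in the labels. Deviations of same-numbered samples correlated between −0.104 and 0.070, and a sample correlated best with its own number in 5 of 24 cases. With the replicate block the counts were 71 for LPS, 51 for (GT)6 SWCNT, 33 for COOH SWCNT, 0 for Fura-2, 18 for DiBASC2, 1 for Di-2-ANEPEQ and 5 for AAV, and 50 and 75 for the (GT)6 and COOH nanotubes against LPS and 45 between the nanotubes. The 191 genes that did not pass the filter were not tested.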

Other observations

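Transporters and transporter chaperones that carry other names, a list of 31 genes of which 27 were tested, were read in the same fit (edgeR, adjusted over all 13116 genes). They were not rerun under the alternatives, and those named were chosen after their values were seen. LPS called 3 higher and 7 lower (13.8% and 14.5% of all genes tested were called in those directions), each nanotube group 1 in each direction, DiBASC2 and Di-2-ANEPEQ 1 lower each, and Fura-2 and AAV none. The median log2 fold change over the 27 genes in LPS was −0.03. Mfsd12, which brings cysteine into lysosomes and melanosomes, fell from 108 ± 3.18 to 76.6 ± 4.62 CPM in LPS (SD, n = 3; log2 fold change −0.49 ± 0.05, adjusted p 7.13e-11). Ctns, which lets cystine out of lysosomes, stood at 27.9 ± 2.44 CPM in control and 23.2 ± 1.45 CPM in LPS (−0.27 ± 0.07, adjusted p 0.00435). Both were higher in each nanotube group than in LPS, Mfsd12 by 0.42 ± 0.05 and 0.47 ± 0.05 and Ctns by 0.30 ± 0.07 and 0.34 ± 0.07 on the log2 scale for (GT)6 SWCNT and COOH SWCNT.

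The mitochondrial pyruvate carrier has subunits Mpc1 and Mpc2. Mpc1 rose in LPS (0.23 ± 0.08, adjusted p 0.0312) and fell in Di-2-ANEPEQ (−0.32 ± 0.08, adjusted p 0.0258), and Mpc2 fell in COOH SWCNT (−0.32 ± 0.07, adjusted p 0.00158). Xpr1, the phosphate exporter, was lower in LPS (−0.15 ± 0.05, adjusted p 0.0330) and was not called in either nanotube group. Flvcr1, a haem and choline carrier, rose in (GT)6 SWCNT (0.15 ± 0.05, adjusted p 0.0355).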
